A study of Mus musculus with 18 samples.

Results

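The let-7 guide strands are the 5′ arms (5p) of the let-7 hairpins, the arm that is kept in Argonaute, and they are described here across mouse cerebellum and hippocampus. The 7 members are mmu-let-7b-5p, mmu-let-7d-5p, mmu-let-7e-5p, mmu-let-7f-5p, mmu-let-7g-5p, mmu-let-7i-5p and mmu-miR-98-5p (mmu, for mouse, is left out from here on), taken by name from the 1841 miRNAs listed in the count tables. Other guides of the family, including those of let-7a and let-7c, are not analysed here. All 7 had at least 5055 reads in every library and passed the filter on low counts in each comparison.

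MicroRNAs of the let-7 family recognise messenger RNAs mainly through bases 2 to 8 at the 5′ end, the seed, and lower their stability and translation. The family is known for its rise during differentiation and for its high level in mature neurons, where LIN28, a repressor of let-7 processing, is low. Its textbook targets include Lin28a, Hmga2 and several Ras genes.

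Small RNAs were sequenced from cerebellum and hippocampus of male C57BL/6J mice aged 1 month, with 3 biological replicates in each of 6 groups. Wild type (WT) and Cyrano-/- (CyrKO) mice gave both tissues. The Cdr1as671 mice carried an 18-nt deletion at the miR-671 site of Cdr1as and the double mutants (CyrKO;Cdr1as671) carried both changes. These 2 genotypes gave cerebellum only. Cyrano is a long noncoding RNA that directs the degradation of miR-7, and Cdr1as is a circular RNA with many miR-7 sites that is sliced by miR-671. Neither RNA is a miRNA, so the miRNA tables hold no direct check of the deleted sequences.

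The mature sequences show why the 7 members are treated as a family and how little separates them. They are RefSeq sequences with the GRCm38.p6 build, and capitals mark the seed.

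let-7b-5p: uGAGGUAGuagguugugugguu

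let-7d-5p: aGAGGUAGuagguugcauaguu

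let-7e-5p: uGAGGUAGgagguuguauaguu

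let-7f-5p: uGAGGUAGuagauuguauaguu

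let-7g-5p: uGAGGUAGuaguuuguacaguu

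let-7i-5p: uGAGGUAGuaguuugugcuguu

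miR-98-5p: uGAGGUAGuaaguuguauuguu

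All 7 were 22 nt long and shared the seed. Across the full length, 14 positions were identical in every member and 8 varied, at positions 1, 9, 11, 12, 16, 17, 18 and 19 counted from the 5′ end. Pairs of members differed at 2 to 6 positions. Against let-7f-5p, let-7e-5p differed by U9G and A12G, and let-7g-5p by A12U and U18C. let-7b-5p differed from it by A12G, A17G and A19G, and miR-98-5p by G11A, A12G and A19U. let-7i-5p differed by A12U, A17G, U18C and A19U. let-7d-5p differed by U1A, A12G and U16C and was the only one of the 7 that began with A. Because a few mismatches can move a read from one guide to another, and no source used here gives the counting rule, the split of reads between near-identical members is uncertain. Among the 1573 listed miRNAs with a RefSeq sequence, 2 others had the same seed. let-7k, at 19 nt, averaged between 5.75 and 8.57 reads per 1000000 miRNA reads (CPM) in the 6 groups, and miR-1961 had no read in any library.

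The hairpins lie on 6 chromosomes and in different kinds of host transcripts (GRCm38.p6, with the GENCODE annotation). Mirlet7b (chr15:85707319-85707403, + strand) lies in an exon of the noncoding transcript Lncppara, 622 bases from Mirlet7c-2. Mirlet7d (chr13:48536012-48536114, - strand) and Mirlet7f-1 (chr13:48537829-48537917, - strand) lie 1715 bases apart in exonic sequence of the lincRNA 6720427I07Rik. Mirlet7e (chr17:17830352-17830444, + strand) lies in an intron of Spaca6, 368 bases from Mir125a. Mirlet7f-2 (chrX:151912346-151912428, + strand) and Mir98 (chrX:151913214-151913321, + strand) lie 786 bases apart in an intron of Huwe1. Mirlet7g (chr9:106178840-106178927, + strand) lies in an intron of Wdr82. Mirlet7i (chr10:122985640-122985724, - strand) lies in an exon of the transcribed pseudogene D630033A02Rik. The let-7f guide is the same from both of its hairpins, so its reads cannot be divided between chromosomes 13 and X.

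The libraries held 8591172 to 15305829 miRNA reads, and 1042 to 1174 miRNAs had at least 1 read. The tissue labels matched the tissue markers: the summed level of 3 hippocampal and forebrain miRNAs (miR-221-3p, miR-222-3p, miR-218-5p) was 5535 to 7961 CPM in the cerebellar libraries and 26265 to 29381 CPM in the hippocampal ones. The summed level of miR-195a-5p and miR-206-3p, listed as cerebellar, was 10409 to 13200 CPM against 2022 to 2384 CPM. Cdr1as671 libraries 1 and 2 stood apart. Their red blood cell miRNAs (miR-451a and both arms of miR-144, all detected) summed to 783 and 603 CPM, against 16205 CPM in library 3 and 6326 to 32949 CPM in the WT cerebellum. In Cdr1as671, the log2 changes of let-7b-5p, let-7f-5p, let-7g-5p, miR-98-5p and let-7f-1-3p are also given without libraries 1 and 2. The other Cdr1as671 results include these libraries unless stated.

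Summed, the 7 guides took 11.0% to 12.7% of the miRNA reads in the cerebellar libraries. Their summed share was 12.3% ± 0.41 (SD, n = 3) in WT cerebellum, 12.04% ± 0.65 in CyrKO, 12.1% ± 0.41 in Cdr1as671 and 11.4% ± 0.38 in the double mutant. In hippocampus it was 9.60% ± 1.16 in WT and 8.59% ± 0.049 in CyrKO. The 3 WT hippocampal libraries gave 9.17%, 8.73% and 10.9%, so library 3 was the high one. All 6 hippocampal libraries lay below the lowest cerebellar library, at 11.0%. These are shares of the reads in these tables, so a change in another abundant miRNA moves them.

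let-7b-5p was the most abundant member in all 18 libraries, at 22814 to 37194 CPM, and ranked between 4th and 9th among all miRNAs. let-7g-5p (13886 to 27162 CPM) and let-7f-5p (17786 to 25816 CPM) came next, followed by let-7i-5p (10236 to 17359 CPM) and let-7d-5p (10085 to 17669 CPM). let-7e-5p was lower, at 5898 to 9137 CPM. miR-98-5p was the least abundant in every library, at 563 to 1389 CPM and ranks 84 to 109. All 7 are close to equal in length, so these levels can be set side by side, although ligation and amplification differ between sequences.

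In WT cerebellum the mean levels were 33569 ± 1489 CPM (SD, n = 3) for let-7b-5p, 26546 ± 1001 for let-7g-5p, 24210 ± 1260 for let-7f-5p and 15153 ± 744 for let-7d-5p. The means of let-7i-5p, let-7e-5p and miR-98-5p were 14785 ± 1512, 7649 ± 290 and 744 ± 52.7 CPM. The libraries of let-7g-5p and let-7f-5p overlapped, as did those of let-7d-5p and let-7i-5p, and the other neighbours in this order did not. let-7g-5p exceeded let-7f-5p in 12 of 18 libraries and was below it in the other 6. let-7i-5p exceeded let-7d-5p in 12 of 18. Every other pair of members kept the same order in all 18 libraries. The plot of level by library shows this order and its change between tissues.

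**Figure D1:**
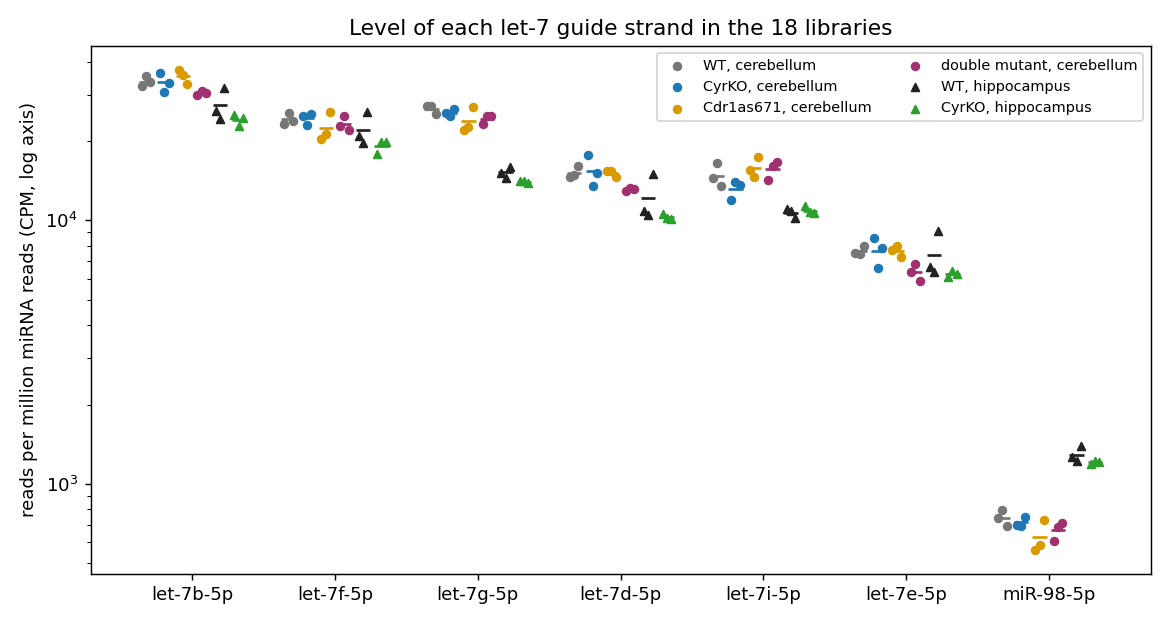
Level of each guide strand in CPM (log axis), with 1 point per library, circles for cerebellum, triangles for hippocampus and short bars for group means. let-7b-5p was highest in all 18 libraries, and miR-98-5p, the lowest, was the only member with higher CPM in all 6 hippocampal libraries than in all 12 cerebellar ones.

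The tissue contrast asked how the guides differ between hippocampus and cerebellum of the same genotype. In WT, 6 of the 7 guides fell in hippocampus and miR-98-5p rose, by edgeR's quasi-likelihood test with trimmed-mean (TMM) scaling and Benjamini-Hochberg adjustment over the 746 miRNAs tested. The background was high: 70% of tested miRNAs passed the same threshold, 37.5% higher and 32.4% lower. The count by itself therefore says little about the guides, and their sizes follow.

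let-7g-5p had the most negative change of the 7. Its 3 WT cerebellar libraries held 27162, 27086 and 25391 CPM and its hippocampal libraries 15137, 14516 and 15954 CPM, with no overlap. The log2 change was -1.35 (SE 0.080, edgeR adjusted p = 2.84e-10) in WT and -1.44 (SE 0.080, adjusted p = 1.37e-10) in CyrKO. The CyrKO libraries repeated the separation, at 24843 to 26357 CPM in cerebellum and 13886 to 14112 CPM in hippocampus.

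miR-98-5p went the other way. Its WT libraries held 742, 797 and 692 CPM in cerebellum and 1263, 1221 and 1389 CPM in hippocampus. Those of CyrKO held 698, 694 and 752 CPM against 1191, 1226 and 1212 CPM. Every hippocampal library was above every cerebellar one. With TMM scaling the log2 change was 0.24 (SE 0.091, edgeR adjusted p = 0.0250) in WT and 0.18 (SE 0.091, adjusted p = 0.0789) in CyrKO. The WT call was lost without WT cerebellar library 3 (log2 0.18, adjusted p = 0.107) and with no filter on low counts (log2 0.23, adjusted p = 0.0516). In CyrKO the guide passed when CyrKO hippocampal library 2, WT cerebellar library 1 or 2, or any 1 of the 3 WT hippocampal libraries was left out (edgeR adjusted p from 0.0144 to 0.0474).

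let-7i-5p fell by 1.02 on the log2 scale (SE 0.096, edgeR adjusted p = 8.08e-08) in WT and by 0.85 (SE 0.096, adjusted p = 7.44e-07) in CyrKO. Its WT cerebellar libraries held 14411, 16449 and 13495 CPM and its hippocampal ones 11012, 10860 and 10236 CPM, which did not overlap.

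let-7b-5p, the most abundant member, fell by 0.85 (SE 0.11, edgeR adjusted p = 2.60e-06) in WT and by 1.05 (SE 0.11, adjusted p = 2.34e-07) in CyrKO. Its WT libraries held 32202, 35156 and 33349 CPM in cerebellum and 25913, 24253 and 31654 CPM in hippocampus, with no overlap. For let-7d-5p the log2 changes were -0.87 and -1.16, for let-7f-5p -0.68 and -0.92, and for let-7e-5p -0.60 and -0.87, in WT and CyrKO in turn. All 6 of these values passed the threshold, with edgeR adjusted p of 0.000523 or less. In WT the libraries of these 3 guides overlapped between tissues, where WT hippocampal library 3 was high. It held 14971 CPM of let-7d-5p, against 10870 and 10455 CPM in the other 2.

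In CPM, 3 guides were lower and 1 was higher without overlap between tissues in WT, where 18% and 54% of tested miRNAs were lower and higher in that way. In CyrKO, 6 were lower and 1 higher, against 18.5% and 58.8%. By the fit, 6 guides fell in CyrKO and none rose, where 72.1% of tested miRNAs passed, 38.9% higher and 33.2% lower.

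The size of these changes depended on scaling. TMM scaling set the median log2 change of all tested miRNAs at 0.028 in WT and 0.098 in CyrKO, and scaling by library totals alone moved it to 0.58 and 0.68. With library totals the WT log2 changes were -0.80 for let-7g-5p, -0.47 for let-7i-5p, -0.30 for let-7b-5p, -0.32 for let-7d-5p, -0.13 for let-7f-5p and -0.050 for let-7e-5p. The last 2 no longer passed (edgeR adjusted p = 0.228 and 0.737). miR-98-5p was at 0.80 in WT and 0.76 in CyrKO, and passed in both. All 7 members kept their sign under both scalings. Relative to the median of all tested miRNAs, let-7g-5p stood at -1.38 and miR-98-5p at 0.22 in WT under either scaling. In CyrKO let-7g-5p stood at -1.54 with TMM scaling and -1.55 with library totals. There miR-98-5p stood at 0.086 and 0.083 in the same order, close to the median. In bulk tissue, fewer cells of a type and less RNA per cell cannot be told apart.

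**Figure D2:**
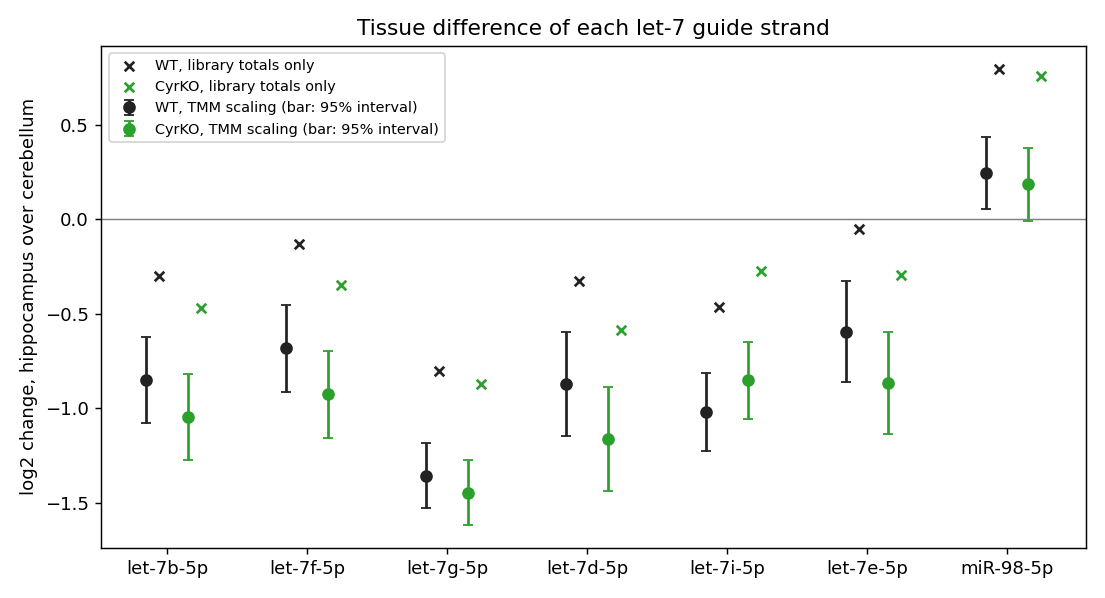
Log2 change of each guide, hippocampus over cerebellum, in WT (black) and CyrKO (green), where circles with bars are the TMM-scaled values with 95% intervals and crosses are the values with library totals only. With TMM scaling 6 guides lie below 0 in both genotypes, let-7g-5p has the lowest value of the 7 at -1.35 and -1.44, and the crosses sit higher throughout.

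A comparison within the family needs no scaling between libraries. let-7g-5p made up 21.7% ± 0.87 (SD, n = 3) of the reads of the 7 guides in WT cerebellum and 15.9% ± 1.13 in WT hippocampus. In CyrKO the values were 21.3% ± 0.81 and 16.3% ± 0.21. miR-98-5p went from 0.606% ± 0.028 to 1.35% ± 0.067 in WT and from 0.595% ± 0.034 to 1.41% ± 0.027 in CyrKO. Measured against the mean log2 level of the 7, let-7g-5p was 0.61 lower and miR-98-5p 0.99 higher in WT hippocampus, and neither overlapped between tissues in either genotype. For the other guides the 2 measures differed. let-7e-5p and let-7f-5p overlapped between tissues in both genotypes against the mean log2 level. As shares of the family, let-7e-5p was higher in hippocampus without overlap in both genotypes (6.24% ± 0.38 and 7.65% ± 0.63 in WT), and let-7f-5p in WT (19.7% ± 0.37 and 22.9% ± 0.61) but not in CyrKO. let-7b-5p made up 27.4% ± 0.45 in WT cerebellum and 28.4% ± 0.62 in WT hippocampus, while against the mean log2 level it was lower in hippocampus, with differences of -0.12 in WT and -0.17 in CyrKO and no overlap.

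The miRNAs of hairpins beside let-7 genes were counted in the same way. With TMM scaling, 3 of 11 such partners rose and 4 fell in hippocampus in each genotype, shares near the background of 37.5% higher and 32.4% lower in WT and 38.9% and 33.2% in CyrKO. With library totals alone 7 rose and 3 fell in each genotype, where 53.9% of tested miRNAs rose in WT and 56.2% in CyrKO, and 16.9% fell in both. The 4 that fell with TMM scaling were all listed as beside Mirlet7e: miR-125a-5p (log2 -1.37 in WT and -1.46 in CyrKO), miR-125a-3p (-1.45 and -1.34), miR-99b-5p (-1.28 and -1.33) and miR-99b-3p (-0.65 and -0.57). Mir125a was found within 10000 bases of Mirlet7e, and Mir99b was not among the neighbours found. With library totals miR-99b-3p was at -0.10 and 0.0077 and did not pass, and the other 3 fell. Those that rose with TMM scaling were listed as beside let-7 hairpins other than Mirlet7e: miR-125b-5p (0.59 and 0.51), miR-125b-2-3p (0.62 and 0.65) and miR-99a-5p (0.52 and 0.56). Their hairpins were not among the neighbours found within 10000 bases of the hairpins of the 7 guides. These 3 miRNAs also rose with library totals, as did miR-100-5p (0.45 and 0.47), whose values with TMM scaling were -0.099 and -0.10 and did not pass.

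Loss of Cyrano was compared with WT in each tissue. In cerebellum no let-7 guide passed the threshold by edgeR or by DESeq2, where 0.898% of the 668 tested miRNAs passed by edgeR. At an unadjusted p under 0.05 the count was also 0 of 7, against 2.4% of tested miRNAs. The log2 changes ran from -0.16 for let-7i-5p (95% interval -0.38 to 0.050) to 0.029 for let-7d-5p (-0.19 to 0.25). let-7b-5p held 36294, 30691 and 33276 CPM in the CyrKO libraries, which spanned the 3 WT values. Its log2 change was -0.0033 (95% interval -0.18 to 0.18).

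In hippocampus the Cyrano-/- libraries again gave no call among the 7 by edgeR or DESeq2, where 0.57% of 702 tested miRNAs passed by edgeR. None had an unadjusted p under 0.05, against 3.85% of tested miRNAs. The median log2 change of the 7 was -0.20, against -0.0045 for all tested miRNAs. let-7e-5p was at -0.26 (95% interval -0.58 to 0.062), let-7d-5p at -0.25 (-0.57 to 0.065), let-7f-5p at -0.22 (-0.47 to 0.026) and let-7b-5p at -0.20 (-0.43 to 0.033). let-7i-5p was at 0.0053 (-0.14 to 0.15). let-7g-5p, at -0.14, was the 1 of 7 whose CyrKO libraries lay below all WT ones in CPM, as 4.27% of tested miRNAs did. It held 13886 to 14112 CPM in CyrKO and 14516 to 15954 CPM in WT. The log2 changes depended on WT hippocampal library 3. let-7e-5p held 6658, 6375 and 9137 CPM in WT and 6116, 6408 and 6272 CPM in CyrKO. Without that library the 7 log2 changes lay between -0.086 and -0.013. The same library had the lowest summed level of 3 oligodendrocyte miRNAs (miR-219a-5p, miR-219a-2-3p, miR-338-3p), at 9564 CPM against 15623 and 15029 CPM. Its choroid plexus and ciliated-cell list summed to 3617 CPM against 7270 and 15849 CPM. All listed members of both lists were detected, and their part in the result was not tested.

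Whether the CyrKO effect differed between tissues was tested as an interaction over 12 libraries. None of the 7 passed by edgeR or DESeq2, where 0.402% of 746 miRNAs passed by edgeR. None had an unadjusted p under 0.05, against 4.69% of tested miRNAs. In the authors' deposited table for CyrKO against WT, the lowest adjusted p-value of the 7 was 0.9997 in cerebellum and 0.990 in hippocampus.

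In Cdr1as671 cerebellum none of the 7 guides passed by edgeR or DESeq2, where 2.26% of 665 tested miRNAs did by edgeR. At an unadjusted p under 0.05, where 20.6% of tested miRNAs lay, miR-98-5p was the 1 of 7, with a log2 change of -0.28 (SE 0.13, edgeR adjusted p = 0.240). let-7g-5p was at -0.19 (95% interval -0.44 to 0.069) and let-7f-5p at -0.14 (-0.41 to 0.12). let-7b-5p, let-7d-5p, let-7e-5p and let-7i-5p lay between -0.044 and 0.067. No guide separated from WT without overlap, as 25% of tested miRNAs did.

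The 3 Cdr1as671 libraries did not behave alike. miR-98-5p held 563 and 588 CPM in libraries 1 and 2 and 733 CPM in library 3, against 692 to 797 CPM in WT. let-7g-5p held 22089 and 22619 CPM, then 27004 CPM, and let-7f-5p 20365 and 21164 CPM, then 25816 CPM. Libraries 1 and 2 were below all 3 WT libraries for these 3 guides, and library 3 was not. Without library 3, miR-98-5p (log2 -0.44, edgeR adjusted p = 0.00578), let-7g-5p (-0.31, adjusted p = 0.0148) and let-7f-5p (-0.29, adjusted p = 0.0203) passed. In that fit 112 of all 681 tested miRNAs passed, the background for these 3 of 7. With libraries 1 and 2 left out, in a fit of the other 16 libraries that lets the lone library take the spread of the other groups, the values in the same order were -0.0017, 0.044 and 0.11, with no call. Libraries 1 and 2 are those with low red blood cell miRNAs, and the part of that in the result was not tested.

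In the double mutant cerebellum none of the 7 passed by edgeR or DESeq2, where 2.57% of 662 tested miRNAs did by edgeR (17, and 35 with the replicate number as a block). At an unadjusted p under 0.05, where 19.2% of tested miRNAs lay, let-7e-5p was the 1 of 7. Its libraries held 6363, 6839 and 5898 CPM, below the WT range of 7449 to 7982 CPM, and the log2 change was -0.18 (SE 0.071, edgeR adjusted p = 0.201). let-7d-5p held 12970, 13238 and 13115 CPM against 14644 to 16007 CPM in WT, with a log2 change of -0.13 (95% interval -0.27 to 0.017). In CPM, 4 of the 7 lay below all WT libraries, a count to read against 21.8% of all tested miRNAs that did so and 4.83% that lay above. CPM rest on library totals, which put the median log2 change of all tested miRNAs at -0.093, against -0.010 with TMM scaling. Among the 4, let-7b-5p and let-7g-5p had log2 changes of -0.061 and -0.045 with TMM scaling. let-7i-5p was at 0.17 (-0.035 to 0.37). The double mutant and Cdr1as671 comparisons share the 3 WT libraries. The authors' deposited table gave lowest adjusted p-values among the 7 of 0.271 in Cdr1as671 and 0.256 in the double mutant.

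**Figure D3:**
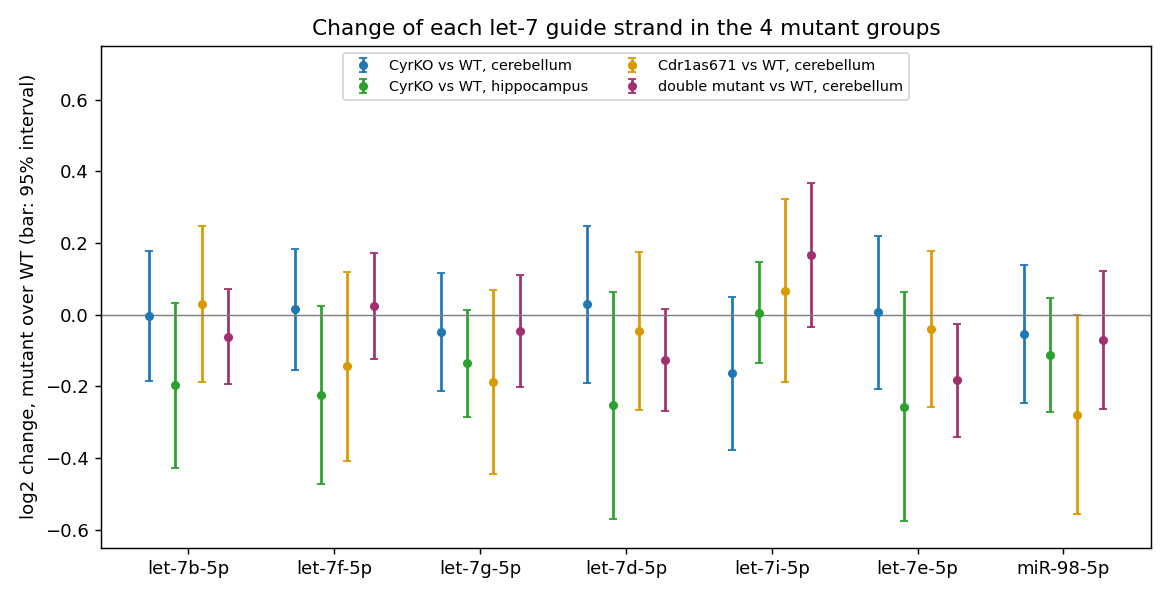
Log2 change of each guide, mutant over WT of the same tissue, with 95% intervals from edgeR in 4 comparisons. No guide passed the adjusted threshold, and 26 of the 28 intervals include 0, the others being miR-98-5p in Cdr1as671 and let-7e-5p in the double mutant.

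Some guides varied together between replicates. Over the 18 libraries, as deviations from the group mean, Pearson's r was 0.93 between let-7d-5p and let-7e-5p, 0.89 between let-7b-5p and let-7d-5p, and 0.82 between let-7b-5p and let-7e-5p. It was 0.96 between let-7g-5p and miR-98-5p, and 0.76 both between let-7f-5p and let-7g-5p and between let-7f-5p and miR-98-5p. let-7b-5p and let-7g-5p were at 0.054, and let-7i-5p ran against let-7e-5p, at -0.54. These values describe the libraries only, since the members share depth, totals and near-identical sequence. By RefSeq sequence, the GC content of the set around let-7d-5p was 45.5% (let-7b-5p) and 40.9% (let-7d-5p and let-7e-5p), and that of the other was 36.4% (let-7g-5p) and 31.8% (let-7f-5p and miR-98-5p). let-7i-5p, at 40.9%, had an r of 0.63 with miR-98-5p and 0.52 with let-7g-5p. Whether base composition plays a part was not tested.

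**Figure D4:**
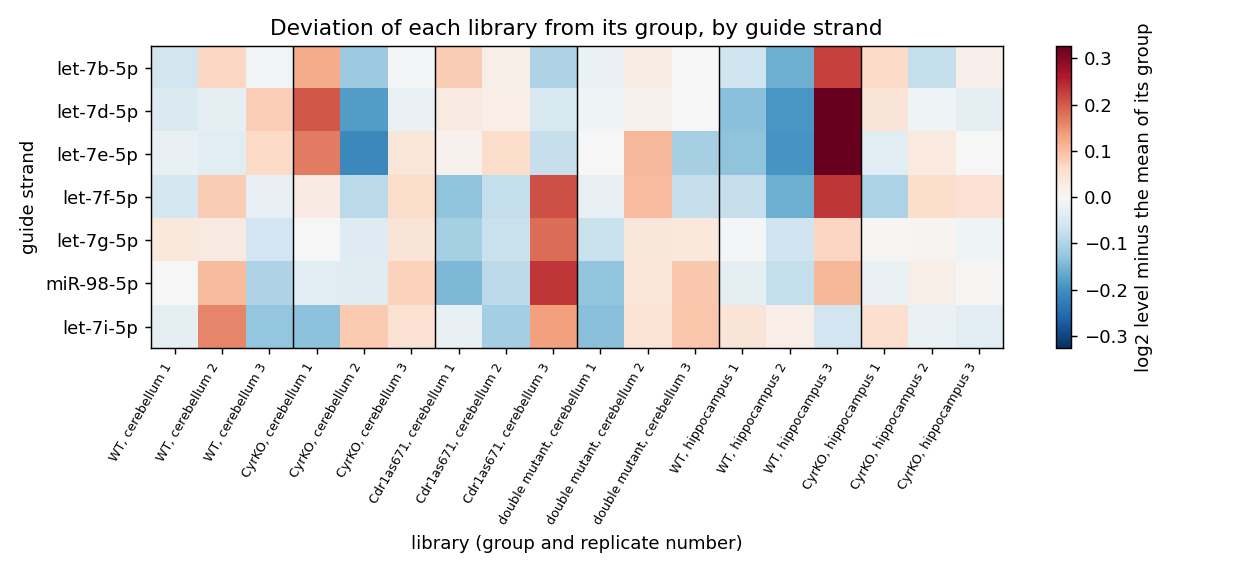
Log2 level of each guide minus its group mean, in each of the 18 libraries, with red above and blue below the mean and lines between groups. WT hippocampal library 3 is above its group for let-7b-5p, let-7d-5p, let-7e-5p and let-7f-5p, and Cdr1as671 library 3 is above its group for let-7f-5p, let-7g-5p, miR-98-5p and let-7i-5p.

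Passenger strands, the 3′ arms that are mostly discarded, were also counted for the same hairpins. The ratio of guide to passenger reads differed widely. It was 1979 to 6542 for let-7g, whose passenger had only 39 to 101 reads per library, 147 to 363 for let-7f, 121 to 389 for let-7b and 106 to 151 for let-7e. It was 28.03 to 70.8 for miR-98, 14.1 to 21.4 for let-7i and 8.68 to 16.4 for let-7d. The passengers at the ends of this range are shown with bases 2 to 8 in capitals.

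let-7g-3p: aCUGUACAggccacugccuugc

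let-7i-3p: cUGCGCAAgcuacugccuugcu

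let-7d-3p: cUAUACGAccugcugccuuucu

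The direction of several passengers between tissues depended on scaling. With TMM scaling, 1 of 8 rose and 7 fell in WT hippocampus, and 1 rose and 6 fell in CyrKO, beside 37.5% higher and 32.4% lower of all tested miRNAs in WT and 38.9% and 33.2% in CyrKO. With library totals alone, 1 rose and 1 fell in each genotype. By that scaling 53.9% of tested miRNAs rose in WT and 56.2% in CyrKO, and 16.9% fell in both. The passenger that fell was let-7i-3p in WT and let-7e-3p (log2 -0.29, edgeR adjusted p = 0.0345) in CyrKO. In WT let-7b-3p (log2 0.13), let-7d-3p (0.075), let-7f-1-3p (0.22) and let-7f-2-3p (0.23) then had positive values that did not pass, as did these 4 and let-7g-3p (0.18) in CyrKO. The one that rose with either scaling was miR-98-3p (log2 0.47, edgeR adjusted p = 0.00135 in WT; 0.30, adjusted p = 0.0232 in CyrKO), the partner of the guide that was higher there. let-7i-3p fell by 1.20 in WT with TMM scaling, beside 1.02 for its guide, and by 0.65 with library totals.

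In Cdr1as671 cerebellum the let-7b ratio was 286 to 372 guide reads per passenger read, and in the double mutant 257 to 389, against 136 to 252 in WT and 171 to 200 in CyrKO. For let-7f it was 288 to 363 and 263 to 331, against 174 to 250 in WT and 219 to 225 in CyrKO. Neither mutant carrying the Cdr1as deletion overlapped WT for these 2 hairpins. Cdr1as671 was also above WT without overlap for miR-98 (41.6 to 70.8 against 31.8 to 40.6) and let-7i (18.1 to 20.9 against 14.1 to 17.5). The double mutant overlapped WT for miR-98 and let-7i, and both mutants did for let-7d, let-7e and let-7g. The ratio has no background over all miRNAs here. Cdr1as671 library 3 alone gave 329 for let-7b and 308 for let-7f. Among the passengers, let-7f-1-3p fell by 0.84 in Cdr1as671 (SE 0.16, edgeR adjusted p = 0.0276), and let-7b-3p, at -0.83, did not pass (adjusted p = 0.0895). The call on let-7f-1-3p was lost with DESeq2 size factors (log2 -0.82, edgeR adjusted p = 0.0617). It was also lost without any 1 of Cdr1as671 library 1 or 2 or WT library 1 or 3 (edgeR adjusted p from 0.146 to 0.284). The call held with library totals, no filter, DESeq2, all 18 libraries and the replicate block (edgeR or DESeq2 adjusted p from 7.98e-06 to 0.00935). Without Cdr1as671 library 3 or WT library 2 it held as well (edgeR adjusted p = 0.00118 and 0.0171). With Cdr1as671 libraries 1 and 2 left out, the log2 change of let-7f-1-3p was -0.55. In the double mutant let-7f-1-3p was at -0.50 (adjusted p = 0.114) and let-7b-3p at -0.87 (adjusted p = 0.142). In CPM, 5 of 8 passengers lay below all WT libraries in each comparison, read against 12% of tested miRNAs in Cdr1as671 and 21.8% in the double mutant.

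**Figure D5:**
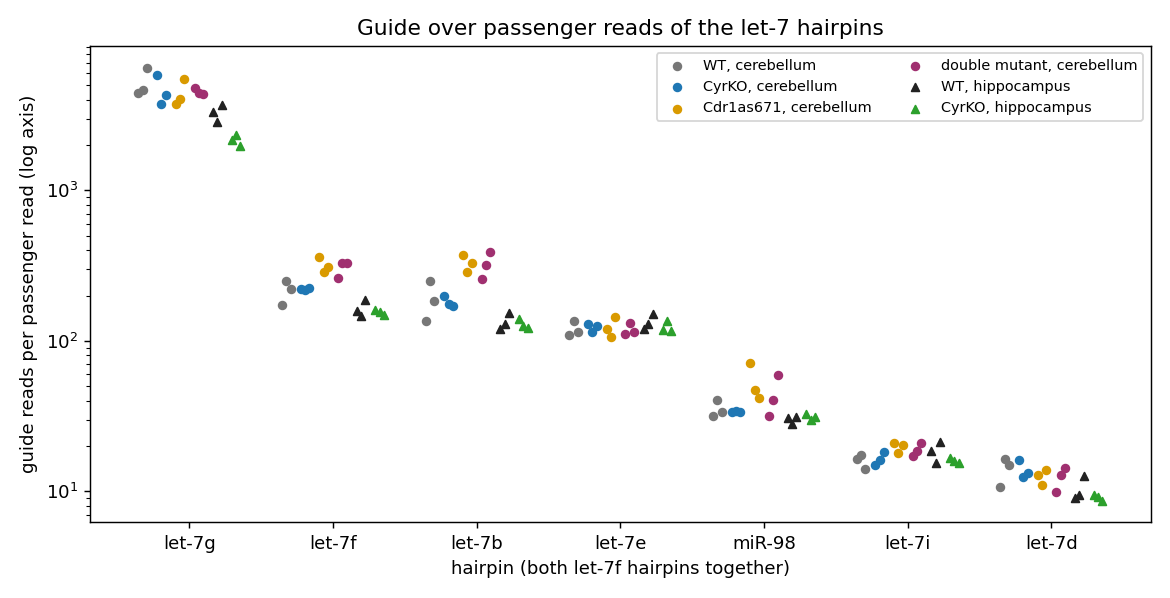
Guide reads per passenger read for each hairpin (log axis), with 1 point per library and both let-7f hairpins pooled. Cdr1as671 and double mutant libraries lie above the WT cerebellar ones for let-7b and let-7f. For let-7i and miR-98 the Cdr1as671 libraries do so and the double mutant ones overlap WT. let-7g has the highest ratio throughout, from 1979 to 6542.

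Among the 236 other miRNAs with a mean of at least 100 CPM, the profile most like the mean of the 7 guides over the 18 libraries was that of miR-26b-5p (Pearson's r = 0.86), followed by miR-340-5p and miR-598-3p (both 0.82), miR-146b-5p (0.81) and miR-26a-5p (0.80). For single guides, let-7g-5p was most like miR-26b-5p (0.98), miR-98-5p like miR-369-3p (0.98), let-7i-5p like miR-340-3p (0.93) and let-7b-5p like miR-26a-5p (0.91). let-7d-5p was most like miR-7a-1-3p (0.87), let-7e-5p like miR-361-5p (0.85) and let-7f-5p like miR-30e-3p (0.79). The 18 libraries fall into 2 tissues, a difference that these profiles share.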

How the data were processed

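Whole-number miRNA counts of 18 libraries were used as the authors deposited them, from total RNA (5 ug) size-selected to 18 to 32 nt, per the labels' protocols. The deposited tables also gave normalised counts (a signal: counts divided by size factors), log2 fold changes, p-values and adjusted p-values of the authors' comparisons. The submitters' processing notes name cutadapt and DESeq2 1.10. No source used here gives the aligner, miRNA annotation or counting rule. CPM are counts over each library's total in these tables. Tests used edgeR 4.0.16 (limma 3.58.1, R 4.3.3): filterByExpr (minimum count 10, total 15), TMM factors, robust quasi-likelihood F-test, Benjamini-Hochberg adjustment over all tested miRNAs and a threshold of 0.05. Mutant comparisons used the 6 libraries compared, and tissue and interaction comparisons the 12 WT and CyrKO libraries. Intervals are 95% from the fit.

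Alternatives were DESeq2 size factors, library totals, no filter, DESeq2 1.42.0, all 18 libraries in 1 fit, a replicate block and leaving out each library. The fit without Cdr1as671 libraries 1 and 2 was added after the data were seen. The script was tested on simulated counts. Same-numbered libraries deviated together (r over 0.1 in 3 of 3 pairs) in CyrKO against WT cerebellum (0.13 to 0.53) and double mutant against WT (0.46 to 0.66). Some differently numbered libraries deviated together as well. CyrKO cerebellar library 3 had r = 0.39 with WT library 2 and 0.13 with WT library 3, and double mutant library 3 had 0.42 with WT library 2. Any pairing is thus uncertain, and it comes from the data, not the labels. The named miRNAs are all 7 guides in each comparison, up to 4 of each list by mean CPM, and, by Pearson's r of log2(CPM + 1), the 5 miRNAs most like the mean profile and the 1 most like each guide. The members and lists were chosen with earlier results of these data known. Other miRNAs named were chosen after their values were seen. Markers not found under their listed names were left out of the sums: miR-497a-5p, which left 2 of 3 cerebellar miRNAs, and both miR-142a arms, which left 3 of 5 immune ones. The marker lists also covered neuron, vessel and immune miRNAs, whose summed CPM in WT were 349638 to 382277, 8090 to 8840 and 216 to 234 in cerebellum, and 259332 to 284962, 11451 to 11895 and 576 to 644 in hippocampus.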

Additional observations from a re-analysis of the deposited data

How the results depend on the processing

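Of the 7 guides, none was called in any mutant comparison or the interaction under any alternative other than leaving out Cdr1as671 library 3, and 6 or 7 were called in WT and CyrKO tissue contrasts, except 5 in WT with library totals. Some values changed sign. let-7b-5p in CyrKO cerebellum was 0.016 with DESeq2 size factors and with DESeq2, 0.022 with no filter and 0.024 with all 18 libraries. With all 18 libraries let-7i-5p in CyrKO hippocampus was -0.030, and let-7d-5p and let-7e-5p in Cdr1as671 were 0.027 and 0.032. With library totals let-7e-5p in Cdr1as671 was 0.0017 and let-7f-5p in the double mutant -0.058. Without Cdr1as671 libraries 1 and 2, let-7b-5p was -0.014, let-7f-5p 0.11 and let-7g-5p 0.044. With both libraries included, the values in the same order were 0.030, -0.14 and -0.19. The cause was not tested.

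Counts of all called miRNAs moved more. In Cdr1as671 (15) they were 4 with DESeq2 size factors, 53 with no filter, 30 with DESeq2, 79 with all 18 libraries, 42 with the replicate block and 4 without libraries 1 and 2. In the double mutant (17) they were 31 with library totals, 61 with no filter, 50 with DESeq2 and 35 with the replicate block. For the interaction (3) DESeq2 and all 18 libraries each gave 5. The replicate block changed no other count by over 1.5 times and no call of a guide. Outside the 2 comparisons named above, same-numbered libraries did not all deviate together.

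Leaving out 1 library at a time gave 4 to 7 called miRNAs in CyrKO hippocampus, 0 to 112 in Cdr1as671 (0 to 3 guides), 6 to 58 in the double mutant and 2 to 4 for the interaction. It gave CyrKO cerebellum ranges of -0.050 to 0.051 for let-7b-5p, -0.064 to 0.11 for let-7d-5p, -0.067 to 0.10 for let-7e-5p and -0.0036 to 0.053 for let-7f-5p, and -0.013 to 0.034 for let-7i-5p in hippocampus. In Cdr1as671 let-7d-5p ranged from -0.086 to 0.00056 and let-7i-5p from -0.033 to 0.15. In the double mutant let-7f-5p ranged from -0.037 to 0.069, let-7g-5p from -0.074 to 0.0053 and miR-98-5p from -0.12 to 0.0066.

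Without the miR-7 guides and miR-124-3p in the total, the summed share was 15.5% in WT and CyrKO cerebellum, 14.8% in Cdr1as671, 14.7% in the double mutant, 11.1% in WT hippocampus and 10.2% in CyrKO hippocampus. Without let-7b-5p in the sum it was 8.91%, 8.70%, 8.56%, 8.34%, 6.88% and 6.18% in the same order. Every guide had 5055 or more reads in each library, while passengers had as few as 39 (let-7g-3p). The part of counting error in the spread between libraries was not tested.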
